A study of Homo sapiens with 9 samples.

Results

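The clustered replication-dependent histone genes are the 66 protein-coding genes of the table whose symbols run in the numbered series H1-1 to H1-6, H2AC, H2BC, H3C and H4C. They were chosen by symbol and gene type alone, out of 62703 genes, and comprise 6 genes for linker histone H1, 16 for H2A, 17 for H2B, 13 for H3 and 14 for H4. Of the 66, 55 lie on chromosome 6 and 11 on chromosome 1. RNA of HK-2 cells, a papillomavirus-transformed human kidney proximal tubule line, was sequenced in 9 libraries for a study of MYDGF, a secreted growth factor, in chronic kidney disease. In the first group (libraries 1, 3 and 4), cells received an adenovirus carrying MYDGF together with aristolochic acid. In the second (1, 4 and 6) they received aristolochic acid alone, a plant toxin that forms DNA adducts. Both of these groups had it at 5 µg/ml for 48 h. The third (1, 2 and 3) was untreated and is labelled 0 h. All 3 groups share 12 h of serum starvation and 5% serum. The labels name no vehicle, no control virus and no separate cultures, so the toxin cannot be told apart from time in culture, nor MYDGF from its vector, and every p-value rests on the spread between samples that may be technical repeats. The treatment text of untreated 2 and 3 and of MYDGF 3 and 4 reads HK-3 or HK-4, although the cell line of all 9 is given as HK-2.

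A dividing cell has to wrap the DNA it copies, and it makes most of the histone protein for this from these genes. Their mRNAs are made mainly in S phase and are unusual in that they end in a short stem-loop, bound by the protein SLBP, in place of a poly(A) tail. The transcript is cut just after the stem-loop by a complex guided by the U7 snRNP. Where this cut is missed, transcription runs on and the RNA can be given a poly(A) tail at a signal further on. The sources used here do not say whether poly(A) RNA was selected or ribosomal RNA depleted.

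The end of the message is shown first, because how much of a histone gene the table counts depends on where its locus is taken to end. Of 62 members with a transcript in GENCODE 29, 26 hold a histone stem-loop inside the locus of the table, with 6 distinct sequences of 16 bases. The commonest was found in 13 members, and the others in 4, 4, 3, 1 and 1. Many other members have only a transcript of about coding length, such as H2BC12 (381 bases), H3C4 (411) and H4C12 (312). A stem-loop past the coding part could not be found in these, so none found does not mean none present. In the lines that follow the stem-loop is in capitals with 5 bases on either side, written as DNA, 5′ to 3′ along the gene (GRCh38). They are from H2BC21 (chr1:149886188-149886203, minus strand), which carries the commonest form, H2BC4 (chr6:26123472-26123487, minus), H4C8 (chr6:26285131-26285146, minus), H4C14 (chr1:149833032-149833047, plus) and H2AC11 (chr6:27133515-27133530, plus), coordinates of the capitals.
H2BC21: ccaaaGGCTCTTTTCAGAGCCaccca
H2BC4: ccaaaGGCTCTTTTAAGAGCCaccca
H4C8: ccaaaGGCCCTTTTCAGGGCCgccca
H4C14: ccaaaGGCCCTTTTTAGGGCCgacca
H2AC11: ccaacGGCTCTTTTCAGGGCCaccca
These are 5 of the 6 forms, and the other is that of H3C6. In 14 of the 26 members the locus was 1 kb or less and ended 5 to 18 bases past the stem-loop (median 5). In the other 12 it was longer and ran on for 430 to 29196 bases. Of the 26, 20 had a GENCODE 29 transcript that continued more than 100 bases past the stem-loop, and 15 of these 20 held AATAAA or ATTAAA, the usual poly(A) signals, in their last 50 bases.

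The promoters show how alike these genes are at the other end. The 250 bases before the transcription start were available from RefSeq (GRCh38.p14) for 61 of the 66 members. The TATA box TATAAA, on either strand, was found in 67.2% of them against 11.1% of the promoters of all genes in the same table. The CCAAT box CCAAT was found in 85.2% against 33.0%, and the octamer ATTTGCAT, the site of the Oct transcription factors, in 42.6% against 1.66%. The octamer was concentrated in H2B (82.4% of promoters) and H2A (73.3%), was found in 9.09% of H3 promoters (1 of 11, H3C4, whose RefSeq window is that of H2AC7 and lies outside the H3C4 locus of the table), and was in no H1 or H4 promoter of this window. CCAAT was in 100% of H1, H2A, H2B and H3 promoters and in 25.0% of H4 promoters. Of 29 tested members with a promoter, 5 of the 12 with an octamer and 11 of the 17 without it were called higher with aristolochic acid. Over all genes tested, 29.7% were. The windows printed here belong to the gene with the most counts (H2BC12, chr6:27146859-27147108, minus strand), to members with a large change (H2BC11, chr6:27132796-27133045, minus, and H1-4, chr6:26156079-26156328, plus) and to the most abundant H4 gene (H4C14, chr1:149832407-149832656, plus). Capitals mark every match to these 3 motifs on either strand, and neighbouring matches can overlap.
H2BC12: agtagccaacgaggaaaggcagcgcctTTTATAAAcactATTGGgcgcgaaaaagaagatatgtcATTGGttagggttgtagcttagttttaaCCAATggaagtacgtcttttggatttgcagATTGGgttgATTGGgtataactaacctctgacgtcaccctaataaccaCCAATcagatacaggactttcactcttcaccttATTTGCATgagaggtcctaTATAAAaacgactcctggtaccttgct
H2BC11: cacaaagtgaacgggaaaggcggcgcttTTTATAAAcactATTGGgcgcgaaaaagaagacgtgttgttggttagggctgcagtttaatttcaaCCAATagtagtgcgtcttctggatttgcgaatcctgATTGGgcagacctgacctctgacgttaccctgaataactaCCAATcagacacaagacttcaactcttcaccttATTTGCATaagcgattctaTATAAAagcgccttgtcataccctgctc
H1-4: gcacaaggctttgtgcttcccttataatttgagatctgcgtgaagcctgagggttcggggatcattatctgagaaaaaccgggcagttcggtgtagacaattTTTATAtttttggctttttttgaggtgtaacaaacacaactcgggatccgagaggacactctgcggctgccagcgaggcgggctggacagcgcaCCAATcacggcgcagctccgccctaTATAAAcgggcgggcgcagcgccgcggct
H4C14: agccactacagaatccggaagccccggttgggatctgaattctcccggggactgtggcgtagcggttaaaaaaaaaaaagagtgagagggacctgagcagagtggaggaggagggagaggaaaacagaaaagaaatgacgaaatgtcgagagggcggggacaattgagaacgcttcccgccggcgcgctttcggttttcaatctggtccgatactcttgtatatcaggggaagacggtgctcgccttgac
The H2BC12 and H2BC11 windows hold an octamer followed by a TATA box close to the start. The H1-4 window holds CCAAT and TATA boxes and no octamer, and none of the motifs is in the H4C14 window. The 250 bases of H4C14 and H4C15 are identical, as are those listed for H2AC7 and H3C4, which share a start in RefSeq.

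The libraries held 10.9 to 14.3 counts in units of 1e6. MYDGF itself averaged 591 CPM (counts scaled to the library total with TMM) with MYDGF and aristolochic acid, 89.8 with aristolochic acid and 126 in untreated cells, and its counts do not tell the vector from the cells' own gene. Of 6 epithelial markers 5 were tested. Against untreated cells, 4 were called higher and 1 lower with aristolochic acid (29.7% and 29.3% of all genes). Among the 6, the keratins KRT8 and KRT18 were abundant in every group (580.0 CPM or more for KRT8), while the 8 proximal tubule markers were low. GGT1, ANPEP, CUBN and AQP1 averaged 1.242 to 9.368 CPM by group, and all 4 were called higher with aristolochic acid than in untreated cells. LRP2, SLC34A1 and HNF4A averaged below 0.3 CPM in every group and SLC22A6 was at 0. Libraries of the same group differed by more than sampling noise in every pair, and each counted as a sample of its own.

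Histone genes were a small fraction of the libraries. They took 0.0459 to 0.0547% of the counts with MYDGF, 0.0467 to 0.0578% with aristolochic acid and 0.0332 to 0.0344% in untreated cells. A pair of genes dominated this fraction. H2BC12, an H2B gene (chromosome 6, 27146361 to 27146855), held 25.7% of all histone counts, and H1-2, a linker histone gene (chromosome 6, 26055740 to 26056470), held 23.3%. Per length the order was the same. The authors' FPKM for H2BC12 was 251.8 ± 12.79 with MYDGF, 248.0 ± 10.57 with aristolochic acid and 198.3 ± 5.553 in untreated cells (mean ± SD, n = 3 each, as for all such values). For H1-2 it was 152.3 ± 13.85, 141.3 ± 17.59 and 134.6 ± 3.966. Next came H2AC19, an H2A gene of chromosome 1, at 59.55 ± 7.006, 48.7 ± 6.021 and 29.56 ± 1.328. Below it, H2BC4, H2BC5, H2AC18, H4C14, H2AC6 and H2BC21 lay between 4.898 and 19.76 in every group, and their order differed between groups. The most abundant H3 gene by counts, H3C10, reached only 2.796 ± 1.12 FPKM with MYDGF, 3.474 ± 1.018 with aristolochic acid and 2.834 ± 0.2489 in untreated cells. FPKM divides by a length in the table, which is the whole locus for compact genes (495 bases for H2BC12) but far more than the coding part for extended ones (5296 bases for H2BC15), so levels of extended genes are spread over a longer stretch. For H3C10 the implied length of 1736 bases exceeded its locus of 1250 bases.

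**Figure D1:**
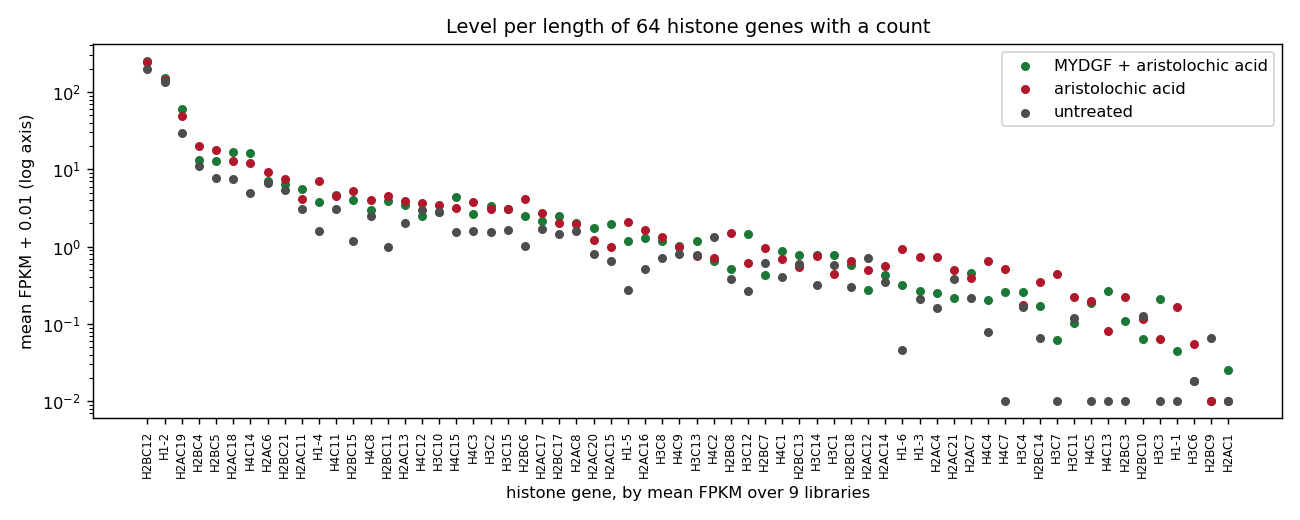
Mean FPKM plus 0.01 (log axis) of the 64 histone genes with at least 1 count, ordered by their mean over the 9 libraries, with 1 point for each group of 3 libraries. H2BC12 and H1-2 stand above 130 FPKM in all 3 groups, and most other members below 10.

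Histone RNA was higher after aristolochic acid, with or without MYDGF, than in untreated cells. The summed level of the 66 genes was 544.7, 489.3 and 462.2 CPM with MYDGF, 476.2, 574 and 467.3 with aristolochic acid and 340.4, 334.8 and 349.2 in untreated cells. All 6 treated libraries lay above the untreated ones, and the treated groups overlapped. The ratio of means was 1.48 for aristolochic acid over untreated cells, 1.46 for MYDGF over untreated cells and 0.986 for MYDGF over aristolochic acid. Aristolochic acid 4 was the highest library, and without it the log2 difference between MYDGF and aristolochic acid was 0.08 in place of -0.02. Without H1-2 and H2BC12 the log2 difference between aristolochic acid and untreated cells was 0.97 in place of 0.57. In a bulk sample, more cells in S phase and more histone RNA per cell cannot be told apart.

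In the summed CPM of each class, the ratio of aristolochic acid to untreated cells was highest for H4 and lowest for H1, whose sum is nearly all H1-2. H4 genes summed to 84.34 ± 5.505 CPM with MYDGF, 71.38 ± 12.79 with aristolochic acid and 34.58 ± 1.356 in untreated cells, a ratio of 2.06 for aristolochic acid over untreated cells. H2B genes summed to 210.4 ± 17.31, 236 ± 23.28 and 147.3 ± 2.369 (ratio 1.6), H2A genes to 76.08 ± 13.46, 75.22 ± 14.76 and 50.37 ± 3.593 (1.49) and H3 genes to 11.9 ± 1.39, 11.96 ± 2.428 and 8.2 ± 0.6226 (1.46). H1 genes summed to 116 ± 10.1, 111.3 ± 13.52 and 101 ± 3.379 (1.1), and here aristolochic acid 6, at 96.12 CPM, lay below all 3 untreated libraries. Without H1-2 the H1 genes summed to 4.358 ± 0.3549, 8.558 ± 1.338 and 1.67 ± 0.07758 CPM, a ratio of 5.12. The median log2 fold change of tested members was likewise higher for H1 (2.13 over 3 genes) than for H4 (0.83 over 6). The 3 H1 values were 0.05 (H1-2), 2.13 (H1-4) and 2.89 (H1-5). H1-5, and H4C3 among the H4 genes, had enough counts to be tested only through the treated groups, where they are high. The chromosome 1 cluster had a ratio of 1.87 (128.9 ± 9.216, 105.3 ± 16.32 and 56.37 ± 3.16 CPM) and the chromosome 6 genes one of 1.4 (369.8 ± 32.83, 400.5 ± 43 and 285.1 ± 9.263 CPM). No test was made on these sums.

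**Figure D2:**
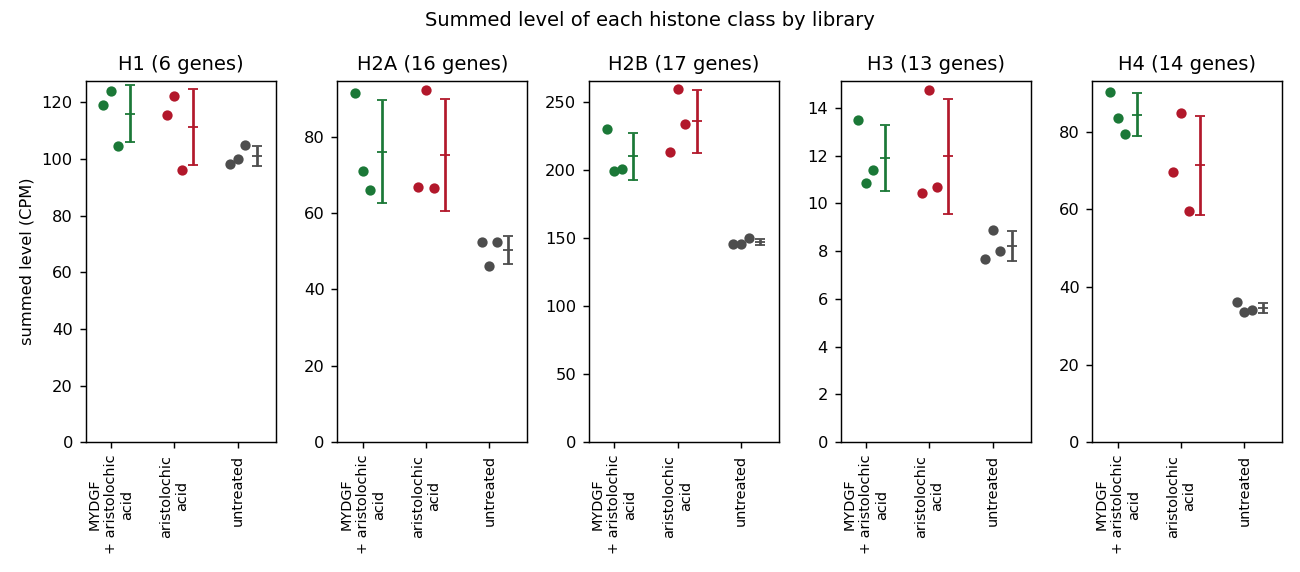
Summed level in CPM of the genes of each histone class in every library (points), with the group mean and SD beside them (bars, n = 3), for MYDGF with aristolochic acid, aristolochic acid and untreated cells. In H2A, H2B, H3 and H4 every treated library lies above every untreated one. In H1 the groups overlap.

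Of the 66 members, 31 had enough counts to be tested. The other 35 held 748 of the 51214 histone counts, and H2BC1 and H4C6 had none. A gene could pass this filter through its counts in a single group: 22 of the 31 reached the level of the filter in all 3 untreated libraries and 9 did not. Aristolochic acid was compared with untreated cells to see how the toxin alters tubule cells. With edgeR's quasi-likelihood test over all 18267 genes tested (adjusted p under 0.05), 17 of the 31 were called higher, where 29.7% of all genes were, and 0 lower, where 29.3% were. The counts at an unadjusted p under 0.05 were 19 higher and 0 lower. DESeq2, which filters otherwise, called 15 higher and 0 lower of 54 members tested, beside 6466 and 4933 of 26447 genes. The median log2 fold change of the 31 was 0.76, against -0.01 over all genes tested, and all 31 estimates were above 0. Libraries of the groups did not overlap for 18 of them, all higher, against 32.9% of all genes. Of the 22 members that reached the filter in untreated cells alone, 14 were called higher. The number called ran from 14, without aristolochic acid 4, to 19, without MYDGF 3, and the calls lost when 1 library was left out were those of H3C2, H4C8, H4C3 and H2AC13. That of H4C3 was lost without aristolochic acid 1 (edgeR adjusted p = 0.0604), aristolochic acid 4 (0.074), untreated 1 (0.0822) or untreated 2 (0.0848), and that of H2AC13 without aristolochic acid 1 (0.0871), aristolochic acid 6 (0.0565), untreated 1 (0.0581), untreated 2 (0.0769) or untreated 3 (0.0902).

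**Figure D3:**
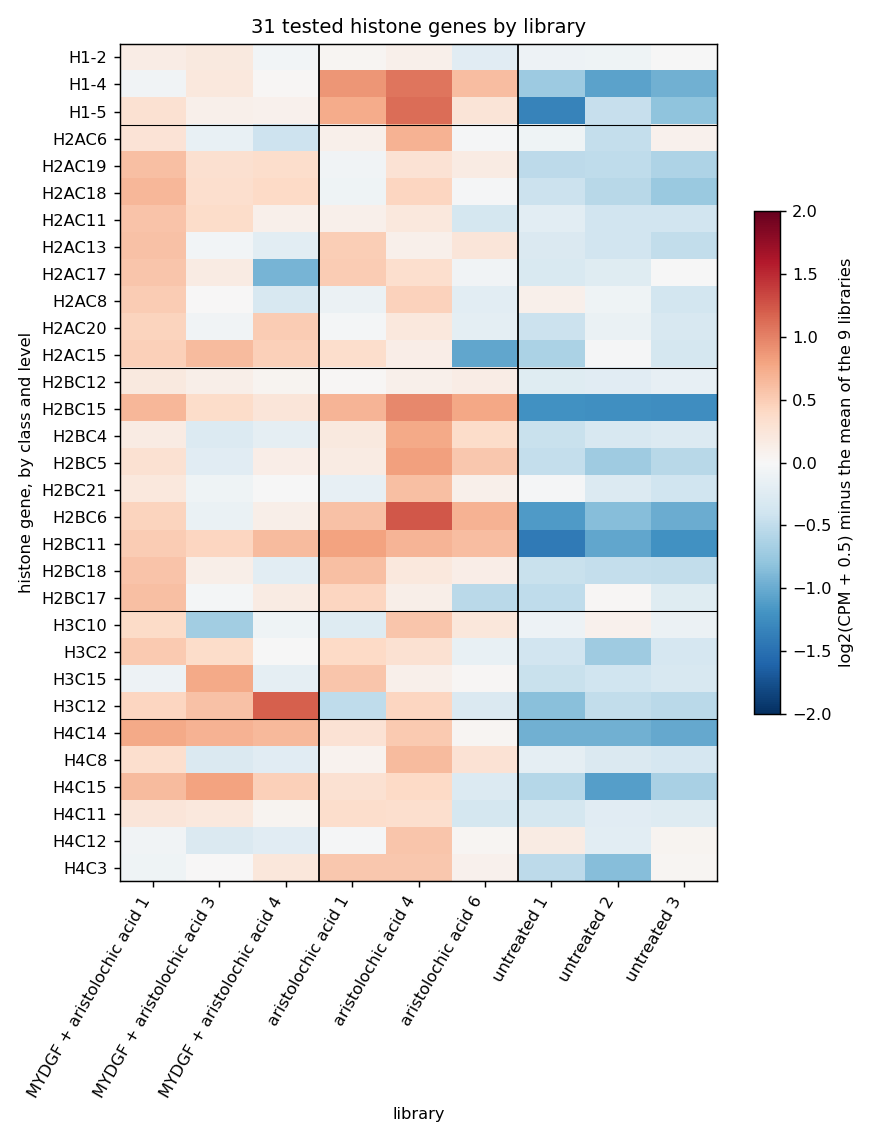
Level of the 31 tested histone genes in each of the 9 libraries, as log2(CPM + 0.5) minus the gene's mean over the libraries, with genes grouped by class and ordered by level within it. The untreated libraries are low (blue) for H1-4, H2BC15, H2BC6, H2BC11 and H4C14, and aristolochic acid 4 is the highest library for many H2B genes.

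Linker histones H1 bind the DNA between nucleosomes, and 2 of the 3 tested genes were called higher, beside 29.7% of all genes. The abundant H1-2 stood at 115.0, 119.3 and 100.6 CPM with MYDGF, 107.4, 112.0 and 88.67 with aristolochic acid and 96.52, 98.32 and 103.2 in untreated cells. Its groups overlapped, and the log2 difference between aristolochic acid and untreated cells was 0.05 (SE 0.0994, edgeR adjusted p = 0.693). H1-4 (chromosome 6, 26156329 to 26157115) stood at 2.68, 3.357 and 2.897 CPM with MYDGF, 5.668, 6.491 and 4.599 with aristolochic acid and 1.506, 1.091 and 1.211 in untreated cells. The 3 groups were separate. H1-4 was higher with aristolochic acid by 2.13 on the log2 scale (SE 0.214, edgeR adjusted p = 4.34e-05). H1-5 (chromosome 6, 27866792 to 27867588) stood at 1.072, 0.8587 and 0.848 CPM with MYDGF, 1.619, 2.241 and 1.012 with aristolochic acid and 0.0, 0.4195 and 0.227 in untreated cells. It had 60 counts in the aristolochic acid libraries and 8 in the untreated ones, with a log2 fold change of 2.89 (SE 0.606, edgeR adjusted p = 0.00262). H1-5 passed the filter through the treated groups, not through untreated cells. The testis linker histone gene H1-6 did not pass the filter. It had 9 counts over the MYDGF libraries, 24 with aristolochic acid and 1 in untreated cells, a CPM ratio of 25.1 for aristolochic acid over untreated cells with a 95% interval of 4.09 to 1030 that covers counting error only.

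Among H2A genes, whose product pairs with H2B in the nucleosome, 3 of 9 tested were called higher, near the 29.7% of all genes. The estimates ran from 0.3 to 0.92. H2AC19 stood at 35.99, 29.59 and 30.03 CPM with MYDGF, 22.43, 28.82 and 26.4 with aristolochic acid and 16.25, 16.36 and 15.21 in untreated cells, so both treated groups lay above the untreated one. Its log2 fold change with aristolochic acid was 0.70 (SE 0.121, edgeR adjusted p = 0.000904). For H2AC18, its near-identical neighbour on chromosome 1, it was 0.76 (SE 0.192, edgeR adjusted p = 0.00741). The levels of H2AC18 were 10.18, 8.041 and 8.41 CPM with MYDGF, 5.83, 8.577 and 6.163 with aristolochic acid and 4.517, 4.111 and 3.556 in untreated cells. How reads were shared between such copies is not given, so the split between them is uncertain. H2AC6 (log2 difference 0.44, SE 0.24, edgeR adjusted p = 0.144) and H2AC11 (0.42, SE 0.254, adjusted p = 0.179) missed the threshold, and the other call was that of H2AC13.

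H2B genes gave the most calls, 7 of 9 tested, beside 29.7% of all genes. H2BC15 (chromosome 6, 27838545 to 27855709) stood at 24.89, 20.22 and 18.59 CPM with MYDGF, 25.26, 30.68 and 26.86 with aristolochic acid and 6.419, 6.376 and 6.28 in untreated cells. All treated libraries were far above the untreated ones, with a log2 fold change of 2.12 for aristolochic acid (SE 0.137, edgeR adjusted p = 6.02e-06). H2BC11 (chromosome 6, 27125897 to 27132795) stood at 7.122, 6.714 and 7.774 CPM with MYDGF, 8.826, 8.113 and 7.726 with aristolochic acid and 1.506, 2.097 and 1.816 in untreated cells (2.18, SE 0.162, edgeR adjusted p = 1.06e-05). H2BC6 (chromosome 6, 26172059 to 26184655) stood at 9.266, 6.011 and 7.279 CPM with MYDGF, 10.28, 16.46 and 11.04 with aristolochic acid and 2.774, 3.44 and 3.102 in untreated cells (2.02, SE 0.235, edgeR adjusted p = 9.7e-05). All 3 encode ordinary core H2B and lie in different parts of the chromosome 6 cluster. H2BC12, the most abundant of all, stood at 130.8, 124.5 and 119.5 CPM with MYDGF, 116.0, 123.2 and 127.3 with aristolochic acid and 96.44, 98.15 and 102.8 in untreated cells. All its treated libraries lay above the untreated ones too, and the treated groups overlapped. The log2 fold change with aristolochic acid was only 0.30 (SE 0.0641, edgeR adjusted p = 0.00286). H2BC5 and H2BC4 lay between, with log2 fold changes of 1.15 (SE 0.196, edgeR adjusted p = 0.000801) and 0.83 (SE 0.172, adjusted p = 0.00249).

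H3 was thinly covered: 4 of its 13 genes were tested, and 1 of them was called higher, near the 29.7% of all genes. That gene, H3C2, passed the filter through the treated groups, where it is high, not through untreated cells. H3C2 had 57 counts with aristolochic acid and 30 in untreated cells (0.97, SE 0.32, edgeR adjusted p = 0.0255), and its call was lost without aristolochic acid 1 (adjusted p = 0.0705), without aristolochic acid 4 (0.07), without untreated 1 (0.0507), without untreated 2 (0.0921) and with DESeq2 (0.0778). H3C10, H3C15 and H3C12 had log2 differences of 0.28, 0.91 and 1.22 (edgeR adjusted p = 0.46, 0.0716 and 0.112). H3C15 passed without MYDGF 3 (adjusted p = 0.0241).

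Of 6 tested H4 genes 4 were called higher, beside 29.7% of all genes. H4C14 (chromosome 1, 149832657 to 149839767), the most abundant of them, stood at 59.04, 56.36 and 54.27 CPM with MYDGF, 42.27, 49.92 and 35.5 with aristolochic acid and 17.51, 17.62 and 16.72 in untreated cells. The 3 groups were separate and ran in this order. Its log2 fold change with aristolochic acid was 1.30 (SE 0.119, edgeR adjusted p = 2.68e-05). H4C15, whose GENCODE 29 transcript of 610 bases is identical to that of H4C14, stood at 11.72, 13.27 and 10.46 CPM with MYDGF, 9.312, 9.891 and 6.071 with aristolochic acid and 4.834, 3.188 and 4.54 in untreated cells (1.01, SE 0.225, edgeR adjusted p = 0.0037). The counts cannot show how much of either belongs to the other. H4C8 had a log2 fold change of 0.65 (SE 0.203, edgeR adjusted p = 0.0207), lost without aristolochic acid 4 (adjusted p = 0.0776), untreated 2 (0.0578) or untreated 3 (0.0585). H4C11 had one of 0.57 (SE 0.278, adjusted p = 0.103), which passed without aristolochic acid 6 (adjusted p = 0.0155). The other call was that of H4C3, with 55 counts with aristolochic acid and 25 in untreated cells. H4C3 passed the filter through the treated groups, where it is high, not through untreated cells.

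MYDGF with aristolochic acid was compared with aristolochic acid to see what MYDGF changes in exposed cells. Few histone genes were called. In the same edgeR fit, 1 of 31 was called higher, where 14.7% of all genes were, and 4 lower, where again 14.7% were. The median log2 fold change was -0.17, against 0.01 over all genes, with 14 estimates above 0 and 17 below. Libraries did not overlap for 4 members higher and 5 lower, against 22.5% and 21.8% of all genes. Neither share is above that of all genes. This comparison and the one before share the 3 aristolochic acid libraries.

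The calls in the lower direction were a linker histone gene and 3 H2B genes. H1-4 was lower with MYDGF than with aristolochic acid by 0.91 on the log2 scale (-0.91, SE 0.195, edgeR adjusted p = 0.00886), and no library left out removed this call. With MYDGF it still stood 1.22 above untreated cells (SE 0.22, edgeR adjusted p = 0.00156). The other 3 had log2 fold changes of -0.75 for H2BC6 (SE 0.218, edgeR adjusted p = 0.0307), -0.56 for H2BC4 (SE 0.17, adjusted p = 0.0358) and -0.38 for H2BC15 (SE 0.126, adjusted p = 0.0495). H2BC4 stood at 17.92, 13.04 and 13.92 CPM with MYDGF, 18.3, 27.12 and 20.6 with aristolochic acid and 11.57, 12.58 and 13.01 in untreated cells. All 3 of these calls were lost without aristolochic acid 4, the highest library, with adjusted p of 0.0983 for H2BC6, 0.113 for H2BC4 and 0.149 for H2BC15. They were also lost without MYDGF 3 (0.102, 0.118 and 0.142) or MYDGF 4 (0.0838, 0.102 and 0.147), and those of H2BC4 and H2BC15 without aristolochic acid 6 (0.0599 and 0.087), untreated 2 (0.0512 and 0.0692) or untreated 3 (0.0514 and 0.0724), and that of H2BC15 without untreated 1 (0.0674). Leaving out aristolochic acid 1 left 6 calls lower, with H2BC5 among them (adjusted p = 0.0241).

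H4C14 was the only member called higher with MYDGF than with aristolochic acid (0.41, SE 0.114, edgeR adjusted p = 0.0258). This call was lost without aristolochic acid 6 (adjusted p = 0.0676), MYDGF 1 (0.0707), MYDGF 3 (0.0581) or MYDGF 4 (0.0518). H4C15 had a difference of the same sign, 0.48 (SE 0.211, adjusted p = 0.114), as had H2AC19 with 0.30 (SE 0.119, adjusted p = 0.0857) and H2AC18 with 0.37 (SE 0.183, adjusted p = 0.158). These 4 genes lie on chromosome 1, where the summed level was 1.22 times that with aristolochic acid, against 0.923 times for chromosome 6. Without H4C14 the chromosome 1 sum was 1.15 times that with aristolochic acid. The 4 were picked by their sign, and other tested members of chromosome 1 had differences of 0.52 (H2AC20), -0.03 (H3C15), -0.17 (H2BC18) and -0.18 (H2BC21), none called. H2AC18 passed without aristolochic acid 4 (adjusted p = 0.048), as did H3C12 (0.0284). H3C12 stood at 1.072, 1.249 and 2.191 CPM with MYDGF, 0.3239, 1.082 and 0.4599 with aristolochic acid and 0.1585, 0.3356 and 0.3026 in untreated cells (1.25, SE 0.465, edgeR adjusted p = 0.0717). Its locus overlaps that of H2AC17 on the same strand, so their reads may not be separable.

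**Figure D4:**
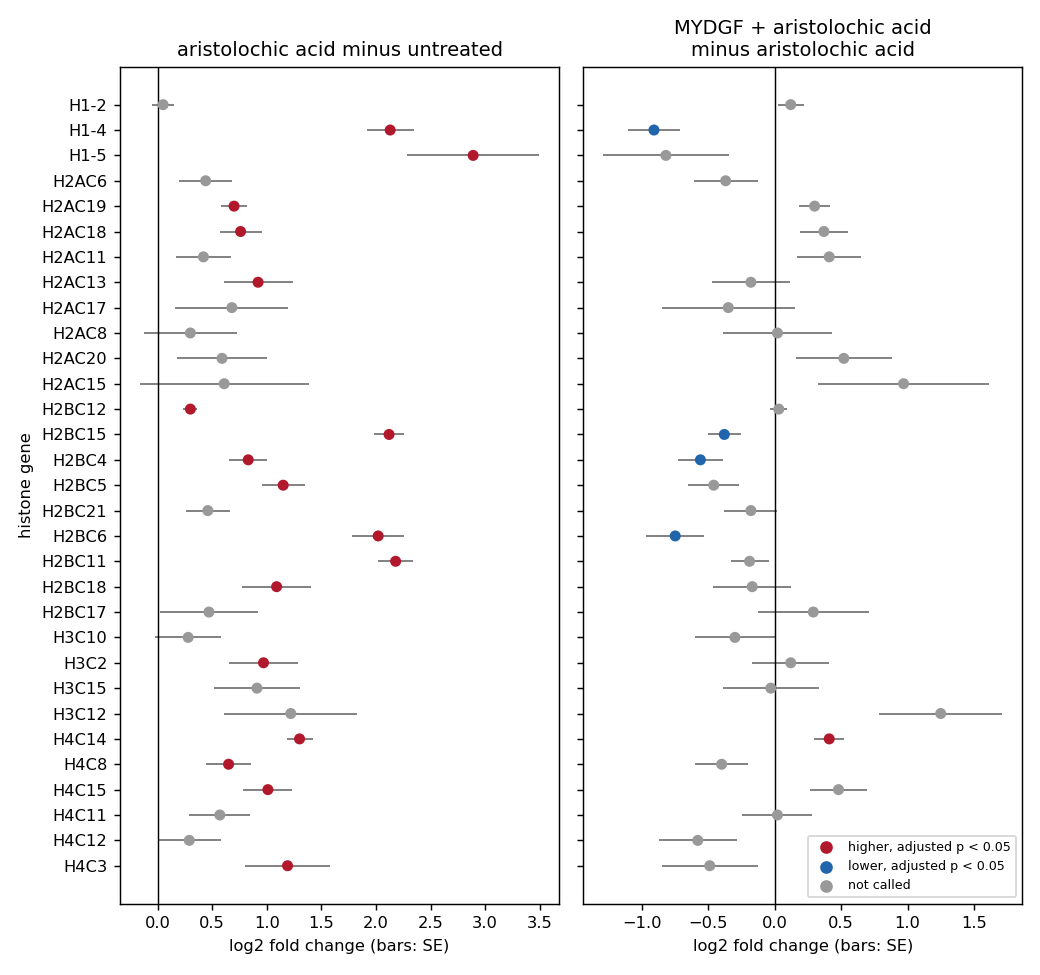
Log2 fold change and its SE (bars) of the 31 tested histone genes for aristolochic acid minus untreated cells (left) and MYDGF with aristolochic acid minus aristolochic acid (right), red where called higher and blue where called lower by edgeR. All points on the left lie above 0, with 17 called. On the right they lie on both sides of 0, with 5 called.

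MYDGF with aristolochic acid against untreated cells gave 16 members called higher of 31 (26.8% of all genes) and 0 lower (24.3%). At an unadjusted p under 0.05 the counts were 18 and 0. DESeq2 called 13 higher and 0 lower of 47 members tested, beside 4967 and 4185 of 22910 genes. The median log2 fold change was 0.84 against 0.02 over all genes, and libraries did not overlap for 21 members, all higher, against 32.8% of all genes. Of the 22 members that reached the filter in all 3 untreated libraries, 12 were called higher. The largest called differences were those of H3C12, 2.47 (SE 0.535, edgeR adjusted p = 0.00416), and H1-5, 2.07 (SE 0.645, adjusted p = 0.0236). Both came from few counts, with 61 against 10 for H3C12 and 37 against 8 for H1-5. Neither reached the filter in all 3 untreated libraries, and H3C12 did so only in the MYDGF group, where it is high. The call for H1-5 was also lost without untreated 3 (adjusted p = 0.0616). H2BC11 differed by 1.99 (SE 0.162, edgeR adjusted p = 2.27e-05), H2BC15 by 1.74 (SE 0.136, adjusted p = 1.94e-05), H4C14 by 1.71 (SE 0.119, adjusted p = 1.15e-05) and H2AC19 by 1.0 (SE 0.121, adjusted p = 0.000172). H2BC4 was not called here (0.27, SE 0.173, adjusted p = 0.217). The smallest number of calls was 10, without MYDGF 1, where those of H2BC18 (edgeR adjusted p = 0.142), H3C2 (0.0599), H2AC11 (0.0651), H1-5 (0.0639) and H2BC5 (0.0531) were lost and H2AC20 did not pass the filter. Without untreated 2 it was 12 and without untreated 3 it was 13.

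Genes with a long locus and genes with a compact one were set side by side, a split chosen after the values were seen. The 15 members with a locus over 1 kb summed to 194.6 ± 24.1 CPM with MYDGF, 216.2 ± 40.58 with aristolochic acid and 106.8 ± 5.077 in untreated cells, a ratio of 2.02 for aristolochic acid over untreated cells. The 51 compact members summed to 304.2 ± 20.72, 289.6 ± 19.31 and 234.6 ± 5.06 CPM, a ratio of 1.23. This lower ratio rested on H1-2 and H2BC12: without them the compact members summed to 67.64 ± 7.85, 64.75 ± 9.725 and 36.16 ± 1.83 CPM, a ratio of 1.79. Of tested members, 9 of 13 with a long locus and 8 of 18 compact ones were called higher, beside 29.7% of all genes. Their medians were 1.09 and 0.64. Both kinds were thus higher with aristolochic acid, including H1-4, whose locus of 787 bases is compact. Where in these loci the reads fell is not in the counts, so reads past the stem-loop were not measured.

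A gene lying just downstream of an active one can collect reads that run on from it. By the loci of the table, H2BC6 begins 0.7 kb past the end of H2BC5, and H2BC5 begins 1.0 kb past H1-4. H3C15 begins 1.0 kb past H2AC19, with each pair on the same strand. The H2BC5 locus, however, runs on 12747 bases past its stem-loop. The RefSeq promoter window of H2BC6 (26183511 to 26183760) lies well inside its locus, which begins at 26172059. The 0.7 kb is thus a gap between annotated loci, not between the histone messages. Tested members were sorted by the distance to the nearest gene that ends upstream of them on the same strand and averages 5 CPM or more over all 9 libraries. Measured between loci, H2BC6, H3C15 and H4C3 had one within 10 kb, and H2BC6 and H4C3 were called higher. H2BC5 is not among them, because H1-4 averaged 3.28 CPM over all libraries. Of the members with such a gene at 10 to 100 kb, H2BC5 included, 10 of 18 were called higher, and 5 of 10 with none within 100 kb. The median log2 fold changes were 1.19, 0.73 and 0.66. Over all genes tested, 29.7% were called higher and 29.3% lower. Among 16 protein-coding genes of other families within 100 kb of a member, 9 were tested, of which 4 were called higher and 3 lower, with a median of -0.22. Of 30 further genes in these windows, neither protein-coding nor pseudogenes in the annotation used, 13 were tested, with 5 called higher, 1 lower and a median of 0.19. The 12 histone pseudogenes in these windows summed to 1.11 CPM with MYDGF, 1.55 with aristolochic acid and 0.88 in untreated cells, and none was tested.

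Many H2A and H2B genes lie head to head and share the stretch between their starts. In the window of H2BC11 shown above, all but a few of the same bases, read on the other strand, are the promoter of H2AC11. There were 11 such pairs, with starts 170 to 251 bases apart, and their levels were often unequal. H2BC12 stood at 251.8, 248.0 and 198.3 FPKM (MYDGF, aristolochic acid, untreated) and its partner H2AC12, 251 bases away, at 0.2663, 0.4905 and 0.6964, a ratio of 480.39 over all libraries. H2AC12 had 5, 8 and 12 counts in the same groups, a CPM ratio of 0.696 for aristolochic acid over untreated cells (95% interval 0.247 to 1.85, counting error only). The changes were unequal in some pairs too. H2BC11 and H2AC11 had log2 fold changes of 2.18 and 0.42 with aristolochic acid, H2BC15 and H2AC15 of 2.12 and 0.61, and H2BC4 and H2AC6 of 0.83 and 0.44. In H2AC17 and H2BC17 they were 0.68 and 0.47, with levels within 1.661 to 2.705 and 1.47 to 2.513 FPKM. In H2AC20 and H2BC21 they were 0.59 and 0.46. The loci counted differ in length, with 6899 bases for H2BC11 against 493 for H2AC11, and 17165 for H2BC15 against 496 for H2AC15. For H2BC4 and H2AC6 they are 9054 and 14972 bases. The difference between partners was not tested.

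**Figure D5:**
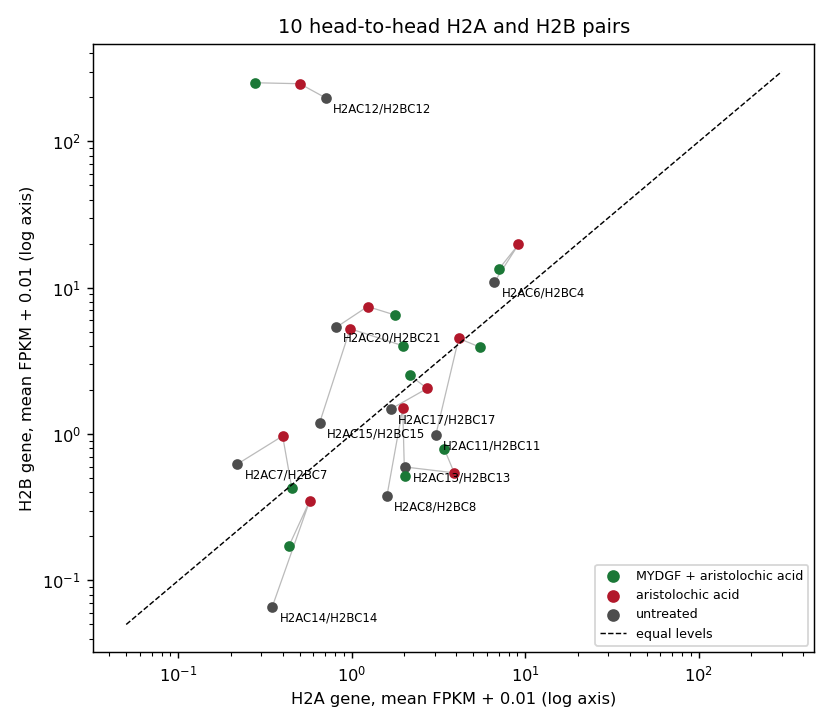
Mean FPKM plus 0.01 of the H2B gene against that of the H2A gene in 10 head-to-head pairs (log axes), with 1 point for each group of 3 libraries joined by a grey line and a dashed line at equal levels. The pair H2AC1 and H2BC1, nearly without counts, is not drawn. H2BC12 lies far above its partner H2AC12 in all 3 groups, while H2AC17 and H2BC17 lie near the line.

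The factors that make and process histone mRNA were looked at beside their targets. Of 19 such genes, all tested, 9 were called higher and 3 lower with aristolochic acid against untreated cells (median 0.22), where 29.7% of all genes were called higher and 29.3% lower. With MYDGF against aristolochic acid 4 were called higher and 1 lower (median 0.08), where the share of all genes was 14.7% each way. SLBP, which binds the stem-loop, stood at 251.3, 222.6 and 192.4 CPM with MYDGF, 145.7, 149.1 and 129.5 with aristolochic acid and 107.5, 114.8 and 118.7 in untreated cells. It was higher with MYDGF than with aristolochic acid by 0.65 (SE 0.1, edgeR adjusted p = 0.00254), and higher with aristolochic acid than in untreated cells by 0.32 (SE 0.101, adjusted p = 0.0223). The smaller difference was lost without untreated 1 (adjusted p = 0.0846), untreated 2 (0.0576) or aristolochic acid 4 (0.0679). NPAT, the coactivator of histone genes at the histone locus body, averaged 86.13 ± 3.256 CPM with MYDGF, 55.61 ± 4.511 with aristolochic acid and 53.74 ± 5.098 in untreated cells, so that only MYDGF against aristolochic acid (0.63, SE 0.0899, edgeR adjusted p = 0.00187) and against untreated cells (0.68, adjusted p = 0.000282) passed. ZNF473, a U7 snRNP-associated zinc finger protein, was higher with aristolochic acid by 1.40 (SE 0.0852, edgeR adjusted p = 5.36e-06), with 0.02 for MYDGF against aristolochic acid (adjusted p = 0.86). The U7 protein LSM11 had log2 differences of 0.02 and -0.02 (adjusted p = 0.885 and 0.884). MBLAC1, a nuclease reported to cut histone pre-mRNA, and ERI1, an exonuclease that trims histone mRNA ends, were higher with aristolochic acid by 0.97 (edgeR adjusted p = 0.00378) and 0.57 (adjusted p = 0.00113).

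Genes of DNA replication and S phase, with which histone genes are normally expressed, were mostly higher with aristolochic acid too. Of 44, all tested, 29 were called higher and 4 lower (median 0.44), beside 29.7% and 29.3% of all genes. With MYDGF against aristolochic acid 21 were called higher and 2 lower (median 0.23), beside 14.7% of all genes each way, and with MYDGF against untreated cells 35 higher and 1 lower (median 0.71), beside 26.8% and 24.3%. Their summed level was 6762 ± 185.3 CPM with MYDGF, 5883 ± 208.4 with aristolochic acid and 4176 ± 31.77 in untreated cells, with no overlap of the groups. The histone sum was 0.986 times that with aristolochic acid in MYDGF cells, and the sum of these genes 1.15 times. The licensing factor gene CDT1 was higher with aristolochic acid by 1.44 (SE 0.0889, edgeR adjusted p = 5.44e-06) and with MYDGF beyond that by 0.62 (SE 0.086, adjusted p = 0.00169). DTL, which directs CDT1 to degradation, was higher by 1.65 (SE 0.0806, adjusted p = 3.38e-06) and by 0.36 (SE 0.0778, adjusted p = 0.00883). The E2F family gene E2F2, at 35, 32 and 11 counts with MYDGF, with aristolochic acid and in untreated cells, was higher with aristolochic acid by 1.57 (SE 0.378, adjusted p = 0.00552). Cyclin E2 (CCNE2) had a log2 difference of -0.08 with aristolochic acid (adjusted p = 0.367) and was higher with MYDGF than with aristolochic acid by 1.31 (SE 0.0767, adjusted p = 6.57e-05). The ribonucleotide reductase subunit gene RRM2 had -0.26 (adjusted p = 0.245) and was higher with MYDGF by 1.09 (SE 0.186, adjusted p = 0.00368).

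Replacement histones, which are made outside S phase as well, moved in both directions. Of 12, all tested, 3 were called higher and 5 lower with aristolochic acid (29.7% and 29.3% of all genes, median -0.06), and 3 higher and 1 lower with MYDGF against aristolochic acid (14.7% of all genes each way, median 0.28). Their difference from the clustered genes was not tested. H2AJ and the centromeric variant gene CENPA were lower with aristolochic acid, with log2 fold changes of -0.75 (SE 0.13, edgeR adjusted p = 0.000909) and -0.74 (SE 0.106, adjusted p = 0.000306), and higher with MYDGF than with aristolochic acid, by 0.51 (adjusted p = 0.0177) and 0.58 (adjusted p = 0.00466). The call for H2AJ was lost without aristolochic acid 6 (adjusted p = 0.0568) or MYDGF 3 (0.0506). H2AX, the variant phosphorylated at DNA breaks, had a difference of -0.08 with aristolochic acid (adjusted p = 0.672) and of 0.54 with MYDGF against aristolochic acid (SE 0.146, edgeR adjusted p = 0.0222). Without aristolochic acid 1 the first became a call (adjusted p = 0.0224), and the second was lost without aristolochic acid 4 (0.0657) or 6 (0.0863) or without MYDGF 1 (0.0554), 3 (0.0616) or 4 (0.0653). H2AZ1, the variant found around transcription starts, was higher with aristolochic acid by 0.47 (SE 0.151, edgeR adjusted p = 0.0236), although the groups overlapped, a call lost without aristolochic acid 4 (0.0838), untreated 1 (0.089) or untreated 3 (0.0765).

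Histone chaperones gave 7 of 15 called higher and 1 lower with aristolochic acid (median 0.19), beside 29.7% and 29.3% of all genes, and 4 higher and 1 lower with MYDGF against aristolochic acid (median 0.15), beside 14.7% each way. The subunits of CAF-1, which places new H3 and H4 on copied DNA, were both higher with aristolochic acid, CHAF1A by 1.07 (SE 0.069, edgeR adjusted p = 6.03e-06) and CHAF1B by 0.40 (SE 0.0942, adjusted p = 0.00527). CHAF1B was higher again with MYDGF, by 0.66 (SE 0.0934, adjusted p = 0.00187), whereas CHAF1A had a difference of 0.06 (adjusted p = 0.569). HIRA, which places the variant H3.3 outside replication, was higher with aristolochic acid by 0.89 (SE 0.105, adjusted p = 0.0001) and lower with MYDGF than with aristolochic acid (-0.39, SE 0.104, adjusted p = 0.0219), a call lost without aristolochic acid 6 (adjusted p = 0.0704), MYDGF 3 (0.0677) or MYDGF 4 (0.0706).

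Marker genes of other cell types had low levels, and several lists moved with the groups. The 4 endothelial markers summed to 3.591 to 4.135 CPM with MYDGF, 6.559 to 12.36 with aristolochic acid and 0.9836 to 1.258 in untreated cells, and the 4 leukocyte markers to 1.696 to 2.264, 3.563 to 7.804 and 0.2377 to 0.3026, with CD3E at 0 and CD79A holding most of it. The 4 markers of distal nephron and podocytes summed to 5.074 to 7.045, 9.717 to 15.45 and 2.768 to 3.566, with UMOD at 0. The 8 markers of the proximal tubule, from which HK-2 cells derive, summed to 17.03 to 19.83, 22.02 to 32.69 and 11.73 to 12.28 CPM. The 4 fibroblast markers summed to 13.29 to 15.62, 8.186 to 14.33 and 10.14 to 12.84 CPM, with DCN at or near 0, and here aristolochic acid overlapped both other groups. Genes with at least 1 count numbered 27818 to 28762 with MYDGF, 28527 to 30637 with aristolochic acid and 25852 to 26012 in untreated cells. The part of these in the histone differences was not tested.

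Members too rare to test were counted. The 35 summed to 6.434 ± 0.615 CPM with MYDGF, 8.844 ± 2.476 with aristolochic acid and 4.487 ± 1.124 in untreated cells. H4C7 and H3C7 had 7 and 8 counts with aristolochic acid and 0 in untreated cells, so that they were at least 2.44-fold and at least 2.78-fold higher when the untreated group was set to its floor of 3 counts, though 7 of the 8 counts of H3C7 were in aristolochic acid 4. H2BC8 had 10 counts with MYDGF, 27 with aristolochic acid and 7 in untreated cells. Not all ran this way: H4C2 had 10, 10 and 19 counts in the same groups (ratio 0.549 for aristolochic acid over untreated cells, 95% interval 0.228 to 1.24), and H3C1 had 16, 8 and 11. These 5 genes were chosen after their values were seen, and their intervals and floors cover counting error only.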

How the data were processed

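RNA of 9 HK-2 libraries in 3 groups of 3 was analysed from the table the authors deposited, with columns matched to samples by title. Each library started from 1.3 µg of total RNA, per the labels' protocols. The table holds whole-number counts per gene, as the authors deposited them, and the authors' FPKM values, which equal the counts divided by the library total and a gene length. For the histone genes this length was the same in all libraries to 0.091%. The submitters' processing notes list edgeR, HISAT2, SAMtools 1.3.1 and CASAVA 1.8 and the mouse build mm10, whereas the table lists human Ensembl genes whose positions were read as GRCh38. Not given in the sources used here are the counting tool, its annotation, its strand setting and its handling of reads with several matches. Histone genes have near-identical copies, so the split of reads between them is uncertain.

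Counts were fitted with edgeR 4.0.16 in R 4.3.3: TMM scaling, filterByExpr (minimum count 10, minimum total 15), a single factor with 3 groups over all 9 libraries, glmQLFit and glmQLFTest, with Benjamini-Hochberg adjustment over all 18267 genes tested and 0.05 as the threshold. The fit left 6 residual degrees of freedom, and the biological coefficient of variation was 16.4%. Levels are TMM-scaled CPM. The SE is the log2 fold change divided by the square root of the F value. A group with 0 counts was set to a floor of 3 counts for a fold. Such floors and the intervals allow for counting error alone. The script was tested on simulated data. Alternatives were DESeq2 1.42.0, other scaling, no filter, the 6 libraries compared, a replicate block and leaving out each library. Stem-loops came from GENCODE 29 transcripts and promoters from RefSeq.

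Named members were the 4 with the highest CPM in each class and up to 4 with the largest called change in each direction of a comparison, and, from each list of other genes, 2 per comparison together with SLBP, NPAT, LSM11 and ERI1. Members and lists were chosen with earlier results of these data known. A gene that this rule names is not reported here.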

Additional observations from a re-analysis of the deposited data

How the results depend on the processing

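The number of histone genes called higher with aristolochic acid against untreated cells was 17 and ran from 14 to 19 when single libraries were left out. With MYDGF against aristolochic acid, 1 was called higher (0 to 3) and 4 lower (1 to 6), and with MYDGF against untreated cells 16 were called higher (10 to 18). With only the 6 libraries compared, MYDGF against aristolochic acid gave 0 higher and 1 lower, and with no filter on low counts 1 lower. The cause was not tested. No member was called lower against untreated cells under any of these alternatives. Same-numbered libraries did not deviate together (correlations from -0.17 to 0.02). With so few such pairs, this cannot settle whether the numbers pair the samples. A replicate block gave 7 higher with aristolochic acid, beside 2652 of all 18267 genes. With MYDGF against aristolochic acid it gave 0 higher and 0 lower, where only 8 and 6 of all genes were called. With MYDGF against untreated cells it gave 10 higher, beside 2909 of all genes. The log2 ratio of the summed levels, 0.57 for aristolochic acid and 0.55 for MYDGF against untreated cells, was 0.43 and 0.45 for sums of FPKM. Chosen after seeing the data, it was 0.97 and 0.87 without H1-2 and H2BC12, and 0.30 and 0.37 for members with a locus of 1 kb or less. For single genes, 1686 of 1797 alternative values kept their direction and their side of the threshold, 102 no longer passed, 9 passed only then and 0 changed sign with a call. At depths of 10.9 to 14.3 counts in units of 1e6, 35 of the 66 genes were too rare to test.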
